A study of Mus musculus with 21 samples.

Results

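The secreted Wnt ligands, their Frizzled receptors and the Sfrp and Dkk antagonists were followed in RNA-seq of germ cell preparations from testes of C57BL/6J (B6) males at 12 days post-partum (dpp). Members were the rows of the gene table whose symbol is Wnt, Fzd, Sfrp or Dkk with a number, which gave 38 of 37620 rows: 19 Wnt, 11 Fzd, 4 Sfrp and 4 Dkk. They carry 37 symbols, since Fzd10 has 2 rows. Each of the 4 sample numbers (186wt, 343wt, 444wt, 456wt) has 3 of the 12 libraries. Strain, age and preparation are the same for all, so the sample numbers are the only contrast. The cells were freed from testes with collagenase and trypsin and are labelled spermatocytes, and the sources used here do not say whether a number is 1 animal or a pool. The study's other samples (ChIP-seq, Affinity-seq and their inputs) were not analysed here.

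Wnt proteins are secreted lipid-modified ligands that bind Frizzled receptors, which cross the membrane and carry a cysteine-rich domain on the cell surface. With the coreceptors Lrp5 and Lrp6 they keep β-catenin from being degraded, so that it enters the nucleus and acts with Tcf and Lef factors, and through other coreceptors they act without β-catenin on cell polarity and movement. Sfrp proteins have a Frizzled-like domain and bind Wnts outside the cell, while Dkk1, Dkk2 and Dkk4 bind Lrp5 and Lrp6. In the testis the pathway is studied above all in the renewal of spermatogonial stem cells and in Sertoli cells, the somatic cells that nurse the germ cells.

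Levels are given in FPKM, a fragment count corrected for the length of the transcript and for library size, so genes can be compared per length. Values of the 3 libraries that share a number were averaged, and each mean ± SD is over 4 sample numbers. Libraries of 1 number correlated with r of 0.976 to 0.982 across 14348 genes (log2 scale) and libraries of different numbers with 0.947 to 0.970. The depth, estimated from the steps of low values, was 12.8 to 17.9 M (mega) fragments per library. At 0.1 FPKM a 2-kb transcript is then covered by about 35.1 fragments over all libraries.

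Transcripts of meiotic cells were present, with 13 of 13 prophase genes above 0.1 FPKM and Sycp3, a part of the synaptonemal complex, at 73.1 FPKM. Somatic marker transcripts were also abundant: the 8 Sertoli genes found summed to 2467 to 4404 FPKM per sample number against 382 to 635 FPKM for the 13 prophase genes, and Clu, a secreted chaperone of Sertoli cells, reached 1844 FPKM on average. Round spermatid genes were low, with a sum of 2.58 to 4.49 FPKM and with Prm2 and Acrv1 below 0.1 FPKM. Which cells carried the Wnt transcripts was therefore not measured, and in such bulk samples fewer cells of a type and less RNA per cell cannot be told apart.

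Of the members, 30 of 38 reached a mean of 0.1 FPKM and 20 reached 1 FPKM. For all rows of the table the shares were 55.3% and 38.1%, and for protein-coding rows 74.2% and 58.7%. Every Fzd row (11 of 11) and every Sfrp gene (4 of 4) passed 0.1 FPKM, as did 14 of 19 Wnt genes and 1 of 4 Dkk genes. The genes below it were Wnt10a, Wnt10b, Wnt8a, Wnt16, Wnt1, Dkk2, Dkk1 and Dkk4. The receptors summed to 60.3 FPKM, the ligands to 40.4, the Sfrp genes to 16.2 and the Dkk genes to 5.14.

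**Figure D1:**
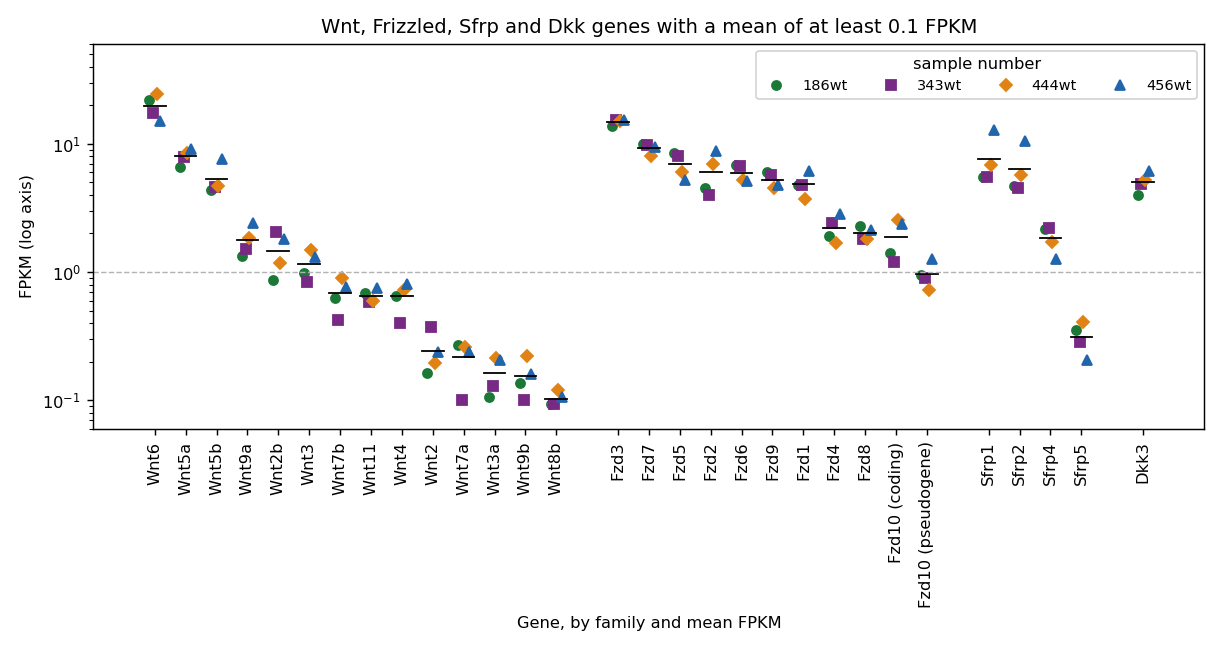
FPKM (log axis) of the 30 rows with a mean of at least 0.1 FPKM, by family and mean level. Each symbol is a sample number (mean of 3 libraries), the black line is the mean of 4 sample numbers and the dashed line is at 1 FPKM. Ligands spread from 0.103 to 19.6 FPKM, while 10 of 11 Fzd rows lie above 1 FPKM.

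Wnt6 was the ligand with the highest level. It was at 21.8 FPKM in 186wt, 17.3 in 343wt, 24.3 in 444wt and 15.0 in 456wt, with a mean of 19.6 ± 4.19 FPKM (SD, n = 4). It held 48.5% ± 8.60 (SD, n = 4) of all FPKM of the Wnt family. Wnt6 lies on chromosome 1 (74818466 to 74831893 of NCBI build 37, plus strand), and its neighbour Wnt10a, a ligand known from tooth and hair development, starts 6196 bp after its end with no gene between them. Wnt10a had 0.04 FPKM in 186wt, 0.0733 in 343wt, 0.137 in 444wt and 0.02 in 456wt, and 2 of its 12 libraries were at 0. The ratio of the means was 290.5, and within sample numbers it went from 178 to 751. Wnt10a rests on about 29.6 estimated fragments in all libraries. The ratio of 751 is that of 456wt, where only library 2 was above 0 (0.06 FPKM).

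Other neighbouring Wnt genes were also unequal. On chromosome 11, Wnt9a at 1.77 FPKM was 10.8 times higher than Wnt3a, its neighbour 16175 bp away on the other strand, and the ratio was 8.61 to 12.4 within sample numbers. Wnt3, which is needed for gastrulation, was at 1.15 FPKM and 7.41 times higher than Wnt9b, a ligand of kidney tubule formation that lies 24328 bp away (6.63 to 8.30 within sample numbers). On chromosome 15 both neighbours were near 0, with Wnt10b at 0.0575 FPKM and Wnt1, the founding mammalian member of the family, at 0.00667 FPKM. The Wnt1 value stands for about 3.1 estimated fragments in all libraries, and 10 of 12 libraries were at 0.

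Promoter sequences are printed for the highest and the lowest ligand, and for a receptor and an antagonist that were highest in different sample numbers. They are the 250 bases before the annotated start in RefSeq on GRCm38.p6, a later build than that of the expression table, 5′ to 3′ on the gene's strand with each CG pair in capitals.
Wnt6 (chr1:74771642-74771891, + strand): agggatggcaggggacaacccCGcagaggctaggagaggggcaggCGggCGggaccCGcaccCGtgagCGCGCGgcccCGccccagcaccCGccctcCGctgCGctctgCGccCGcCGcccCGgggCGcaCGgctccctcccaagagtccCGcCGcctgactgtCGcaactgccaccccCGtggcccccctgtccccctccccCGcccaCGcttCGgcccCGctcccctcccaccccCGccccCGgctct
Wnt1 (chr15:98789607-98789856, + strand): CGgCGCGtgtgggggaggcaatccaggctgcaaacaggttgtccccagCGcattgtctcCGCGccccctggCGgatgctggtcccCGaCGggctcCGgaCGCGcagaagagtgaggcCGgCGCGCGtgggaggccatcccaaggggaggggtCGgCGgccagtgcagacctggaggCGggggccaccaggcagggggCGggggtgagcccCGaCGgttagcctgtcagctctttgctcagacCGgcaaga
Fzd5 (chr1:64737751-64738000, - strand): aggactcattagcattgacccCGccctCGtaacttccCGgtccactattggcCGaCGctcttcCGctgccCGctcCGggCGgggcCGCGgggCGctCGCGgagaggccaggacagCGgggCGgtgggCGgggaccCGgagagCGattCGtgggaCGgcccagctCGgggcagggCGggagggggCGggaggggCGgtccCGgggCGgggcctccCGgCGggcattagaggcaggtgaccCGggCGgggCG
Sfrp2 (chr3:83766071-83766320, + strand): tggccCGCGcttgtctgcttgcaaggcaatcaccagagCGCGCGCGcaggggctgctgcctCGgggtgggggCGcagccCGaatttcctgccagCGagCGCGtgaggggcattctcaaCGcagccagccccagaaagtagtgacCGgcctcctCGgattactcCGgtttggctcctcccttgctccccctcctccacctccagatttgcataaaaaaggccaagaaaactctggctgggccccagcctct

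The Wnt6 stretch has 28 CG pairs and that of Wnt1 has 23, and their transcripts were at 19.6 and 0.00667 FPKM. Wnt1 was not typical of the low members. The others below 0.1 FPKM with an entry have fewer, with 6 for Dkk1, 7 for Dkk2, 9 for Wnt16 and 14 for Wnt10b. Wnt3a at 0.164 FPKM has 41, while the starts of Wnt5b at 5.33 FPKM have 7, 4 and 35. Whether CG pairs go with level was not tested. The stretches of Fzd5 and Sfrp2 have 32 and 16. Of the 37 symbols, 25 had a promoter entry (28 stretches, because Wnt5b and Wnt11 have several starts), and 12 had none, among them Wnt5a, Fzd3 and Sfrp1. The 28 stretches had a median of 22 CG pairs (range 4 to 48) against 6 for all 32851 stretches of the table, and a median GC content of 69.4% against 52.4%. The letters TATAAA, searched on both strands, were in 4 of 28 stretches (14.3%; Dkk1, Dkk2, Fzd1 and a start of Wnt11) and in 12.4% of all. The letters CTTTGAA or CTTTGAT, the core of Tcf and Lef sites, were on either strand in 3 of 28 (10.7%; Dkk1, a start of Wnt5b and a start of Wnt11) and in 7.48% of all.

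To ask which members differed between sample numbers, all 20795 genes that averaged 0.1 FPKM or more were tested with limma (moderated F-test across 4 sample numbers on log2(FPKM + 0.1), adjusted p under 0.05 over all genes). Of the 30 members tested, 21 were called (70.0%), and 58.2% of all genes tested were called. Among genes of at least 1 FPKM it was 19 of 20 members and 77.6% of all genes. Neither gap was tested. The called members were 8 of 14 Wnt genes, 9 of 11 Fzd rows, 3 of 4 Sfrp genes and Dkk3. The median difference between the highest and the lowest sample number was 0.73 for the members and 0.55 for all genes tested (log2 scale). Sfrp1, Sfrp2, Wnt2b and Fzd2, 4 of 30 members (13.3%), were called with a difference over 1, as were 10.5% of all genes. Each adjusted p given for a gene is that of the F-test over all numbers in the fit, even beside a difference. That difference is between the highest and the lowest number, a pair picked from the data and not tested alone. Its SE does not allow for this choice. The p-values compare the numbers with the spread between their libraries, which may be technical, since the labels do not say how the libraries of a number were made. The authors describe RNA from 4 replicates of germ cells, and there are 4 sample numbers. If the numbers are these replicates, the tests compare single replicates with libraries as units.

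Wnt6 differed by 0.69 ± 0.04 (SE) on the log2 scale between 444wt and 456wt (adjusted p = 1.54e-07 with the limma F-test over the 4 numbers). All libraries of 444wt were above those of the other numbers (23.2 to 25.3 against at most 22.7 FPKM), and those of 456wt were below all others. The meiotic prophase list also had its highest sum in 444wt (635 FPKM, 382 to 502 in the other numbers), as did the list of differentiating spermatogonia (350 FPKM, 215 to 287), of which 4 of 5 genes were called and highest there. Of all genes tested, 21.7% were called and highest in 444wt. The lowest number was not shared, since Wnt6 was lowest in 456wt, the prophase sum in 343wt and the sum of differentiating spermatogonia in 186wt. The part of these lists in the difference was not tested.

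Wnt5a and Wnt5b are close paralogs known for signalling without β-catenin. Wnt5a (chromosome 14, 29317936 to 29340633) was at 6.59 FPKM in 186wt, 7.95 in 343wt, 8.41 in 444wt and 9.16 in 456wt (mean 8.03 ± 1.08, n = 4). It was lowest in 186wt, whose libraries were all below the rest, and the difference to 456wt was 0.47 ± 0.08 (SE; adjusted p = 0.00277 with limma). Without 186wt it was 0.20 and no longer called (adjusted p = 0.176 with limma).

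Wnt5b was at 4.37, 4.61, 4.67 and 7.67 FPKM in the same order (mean 5.33 ± 1.57, n = 4). Only 456wt stood apart, with libraries of 7.58 to 7.81 FPKM against 4.12 to 4.80, and the difference to 186wt was 0.80 ± 0.06 (SE; adjusted p = 1.74e-06 with limma). Without 456wt it was 0.09 (adjusted p = 0.510 with limma). Wnt5b overlaps Fbxl14 on the opposite strand, which was at 11.0 FPKM, and a strand setting of the counting is not given in the sources used here.

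Wnt9a, a ligand of joint formation, was at 1.32, 1.50, 1.84 and 2.41 FPKM (mean 1.77 ± 0.478, n = 4). It was highest in 456wt, and the difference to 186wt, the lowest, was 0.82 ± 0.12 (SE; adjusted p = 0.000634 with limma). Without 456wt the largest difference was 0.445 and not called (adjusted p = 0.0569 with limma). Wnt2b had a different order, with 0.86, 2.05, 1.17 and 1.80 FPKM (mean 1.47 ± 0.550, n = 4). It was higher in 343wt than in 186wt by 1.18 ± 0.18 (SE; adjusted p = 0.000461 with limma). Without 186wt the difference of Wnt2b was 0.78 (adjusted p = 0.0058 with limma), and with a pseudocount of 1 it was 0.72.

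The other ligands were lower. Wnt3 and Wnt7b were called with the highest level in 444wt, and Wnt4, which acts in ovary and kidney development, with the highest level in 456wt (0.813 FPKM, 0.403 in 343wt). The call of Wnt7b was lost without 343wt (adjusted p = 0.170 with limma), without 444wt, without either of 2 single libraries of 343wt and with quantile normalization, and that of Wnt4 without 343wt (adjusted p = 0.511 with limma) and with quantile normalization. Wnt11, Wnt2, Wnt7a, Wnt3a, Wnt9b and Wnt8b, at means of 0.653 to 0.103 FPKM, were not called. In the order of levels, the 4 values of Wnt6 lay above those of Wnt5a, and those of Wnt5b above those of Wnt9a. Wnt5a and Wnt5b overlapped, as did each pair of neighbours from Wnt9a down to Wnt4 and from Wnt2 down to Wnt1.

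Among the receptors Fzd3 was highest, and its difference between sample numbers was the smallest of the 30 members tested. Fzd3, which acts in axon guidance and planar polarity, was at 13.8, 15.3, 15.0 and 15.4 FPKM in 186wt, 343wt, 444wt and 456wt (mean 14.9 ± 0.716, n = 4; chromosome 14, 65819863 to 65881300). It was not called, with a difference of 0.15 ± 0.06 (SE; adjusted p = 0.127 with limma). It held 24.7% ± 1.67 (SD, n = 4) of the FPKM of the receptor rows, so no receptor had a share like that of Wnt6 among the ligands.

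Fzd5, Fzd6, Fzd7, Fzd8 and Fzd9 were the 5 receptors called with the highest level in 186wt. No called ligand or antagonist was highest there, but the antagonist Sfrp4 was almost level in 186wt (2.18 FPKM) and 343wt (2.20 FPKM). The 5 receptors are 16.7% of the members tested, and 9.17% of all genes tested were called and highest in 186wt. That gap was neither tested nor matched for level. The 5 had no common order, since Fzd8 was lowest in 343wt and Fzd7 in 444wt. The lead of 186wt over 343wt was small in Fzd6 (6.78 against 6.72 FPKM) and Fzd7 (9.96 against 9.84 FPKM). Only for Fzd8 were all libraries of 186wt above those of the other numbers. Fzd5, which is needed for blood vessels of the yolk sac, was at 8.49, 8.09, 6.00 and 5.24 FPKM (mean 6.96 ± 1.58, n = 4; chromosome 1, 64777134 to 64784324). It was lower in 456wt than in 186wt by 0.69 ± 0.07 (SE; adjusted p = 1.05e-05 with limma), and the libraries of 456wt were below all others. Fzd6, which orients hair follicles, was at 6.78, 6.72, 5.24 and 5.09 FPKM (mean 5.96 ± 0.918, n = 4), a difference of 0.41 ± 0.05 (SE; adjusted p = 4.07e-05 with limma).

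In both genes 186wt and 343wt were alike and above 444wt and 456wt. The Sertoli list was split in the same way, with summed FPKM of 4288 in 186wt and 4404 in 343wt against 2467 in 444wt and 2649 in 456wt, and 8 of its 8 genes found were called with the highest level in 186wt or 343wt. Its part in the receptor values was not tested. Fzd9 had the same split with 5.98 and 5.72 against 4.50 and 4.77 FPKM.

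Fzd7, a receptor often found in stem cells, was at 9.96, 9.84, 8.03 and 9.51 FPKM (mean 9.34 ± 0.894, n = 4). Its low value in 444wt carried the difference of 0.31 ± 0.05 (SE; adjusted p = 0.000733 with limma), and without 444wt it was 0.07 (adjusted p = 0.542 with limma). Fzd8 passed the threshold narrowly (0.35 ± 0.11, SE; adjusted p = 0.0498 with limma) and lost its call in 17 of 24 alternatives, with an adjusted p of up to 0.226 with limma.

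Fzd2, Fzd1 and Fzd4 were called with the highest level in 456wt. Fzd2 (chromosome 11, 102465745 to 102469372) was at 4.50, 3.98, 7.00 and 8.78 FPKM (mean 6.06 ± 2.24, n = 4). It was the receptor with the largest called difference, 1.12 ± 0.06 between 456wt and 343wt (SE; adjusted p = 1.20e-07 with limma), and the libraries of 456wt were above and those of 343wt below all others. Fzd1 was at 4.78, 4.80, 3.69 and 6.10 FPKM and Fzd4, the receptor of Norrin in retinal vessels, at 1.91, 2.39, 1.69 and 2.84 FPKM. These latter genes were lowest in 444wt, unlike Fzd2. The sum of all receptor rows stayed within 56.2 FPKM (444wt) and 63.4 FPKM (456wt).

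Fzd10 is listed in 2 rows of the same strand of chromosome 5, a protein-coding gene (129106719 to 129109968) and a pseudogene model that lies inside it (129106806 to 129109236). RSEM divides the reads they share. In library 1 of 444wt the coding row had 3.47 FPKM and the pseudogene row 0.05, while in library 3 of the same number they had 1.90 and 1.15. The coding row was called, with 444wt as highest (0.98 ± 0.20, SE; adjusted p = 0.00237 with limma), and the pseudogene row was not (adjusted p = 0.433 with limma). Their sum was 2.37, 2.09, 3.25 and 3.61 FPKM, which put 456wt highest and 343wt lowest with a difference of 0.76 ± 0.10 (SE; adjusted p = 0.000111 with limma). The 2 numbers with the highest sum were thus the same, but their order followed the handling of the rows.

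**Figure D2:**
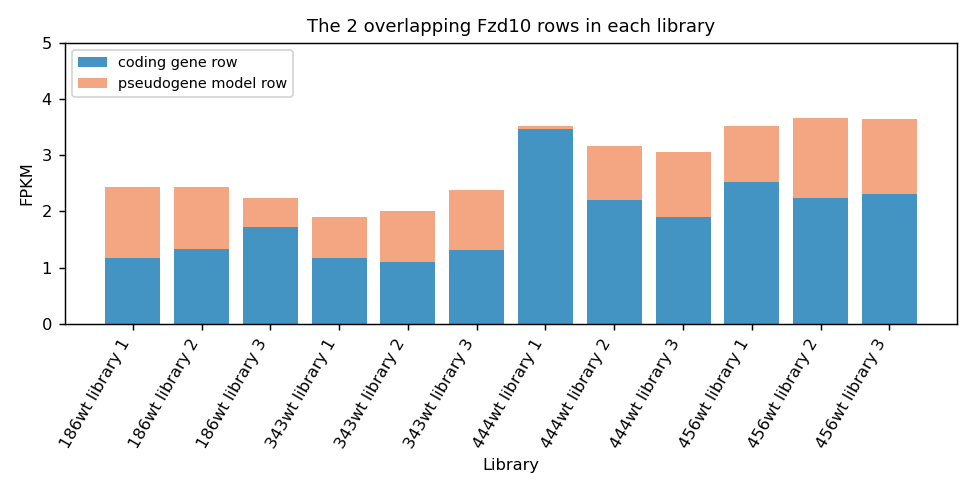
FPKM of the 2 overlapping Fzd10 rows in each of the 12 libraries, stacked so that the bar height is their sum. The division between rows varies between libraries of 1 number, most in 444wt, while the sum stays between 1.90 and 3.66 FPKM and is above 3 in the libraries of 444wt and 456wt.

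The antagonists Sfrp1 and Sfrp2 were, with Wnt2b, the members with the widest called differences (log2 values of 1.21, 1.19 and 1.18, which differ by less than their SE, on a scale that understates low genes such as Wnt2b). Sfrp1 (chromosome 8, 24521974 to 24560104) was at 5.54, 5.47, 6.81 and 12.8 FPKM (mean 7.64 ± 3.46, n = 4). Sfrp2 (chromosome 3, 83570243 to 83578238) was at 4.67, 4.51, 5.76 and 10.5 FPKM (mean 6.35 ± 2.80, n = 4). Both genes had 1 order of sample numbers, and the libraries of 456wt lay above all others, at 12.2 to 13.0 FPKM for Sfrp1 (others at most 7.09) and 9.52 to 12.2 FPKM for Sfrp2 (others at most 6.33).

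Between 456wt and 343wt Sfrp1 differed by 1.21 ± 0.06 (SE) and Sfrp2 by 1.19 ± 0.13 (SE). In the limma F-test over all numbers the adjusted p was 2.02e-08 for Sfrp1 and 3.25e-05 for Sfrp2. Without 456wt the difference of Sfrp1 was 0.31 and still called (adjusted p = 0.00379 with limma), and that of Sfrp2 was 0.34 and not called (adjusted p = 0.082 with limma). Sfrp4 went the other way, with 2.18, 2.20, 1.72 and 1.26 FPKM (mean 1.84 ± 0.443, n = 4) and its lowest libraries in 456wt (0.74 ± 0.20, SE; adjusted p = 0.0227 with limma). Without 456wt it differed by 0.33 and was not called (adjusted p = 0.370 with limma), its call was also lost without library 1 or library 2 of 456wt, and with a pseudocount of 1 the difference was 0.49. Sfrp5 was at 0.313 FPKM and not called.

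Dkk3 held 98.1% ± 0.580 (SD, n = 4) of the FPKM of the Dkk genes. It is the divergent member of the family, and its binding to Lrp5 or Lrp6 is not established. It was at 3.98, 4.85, 5.18 and 6.16 FPKM (mean 5.04 ± 0.902, n = 4), a difference of 0.61 ± 0.08 between 456wt and 186wt (SE; adjusted p = 0.000461 with limma). It was 0.33 without 186wt and 0.37 without 456wt, and called in both. Dkk2 had 0.0267, 0.0567, 0.0733 and 0.113 FPKM, a mean of 0.0675 ± 0.0362 (n = 4) that was too low for the test. Dkk1, the best known inhibitor of Lrp5 and Lrp6, was at 0.0267 FPKM with 7 of 12 libraries at 0, and in 186wt all of its libraries were at 0, which allows up to 0.0306 FPKM over that number (3 fragments, counting error only). Dkk4 was above 0 in a single library.

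In all, 10 members were called with the highest level in 456wt, namely Wnt5a, Wnt5b, Wnt9a, Wnt4, Fzd2, Fzd1, Fzd4, Sfrp1, Sfrp2 and Dkk3. That is 33.3% of the members tested, and 16.3% of all genes tested were called and highest there. The number 444wt had 4 such members (13.3%; Wnt6, Wnt3, Wnt7b and the coding row of Fzd10) against 21.7% of all genes, and 343wt had 2 (6.67%; Wnt2b and Sfrp4) against 11.0%. None of these gaps was tested.

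**Figure D3:**
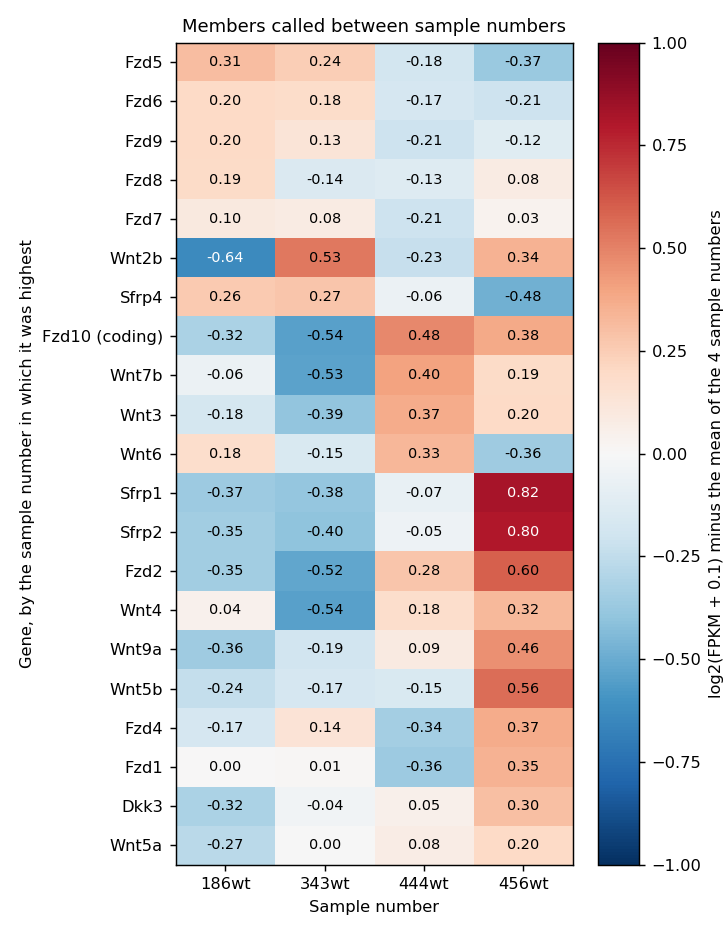
Values of log2(FPKM + 0.1) of each sample number minus the mean of the 4 numbers (color and printed value) for the 21 called members, ordered by the number in which they were highest. Sfrp1 and Sfrp2 reach 0.82 and 0.80 in 456wt, and Fzd5, Fzd6 and Fzd9 are above their means in 186wt and 343wt and below them in the other numbers.

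Of the marker lists of somatic cells, 3 were highest in 456wt as well. The 7 interstitial stroma genes (collagens and others) summed to 1076 FPKM in 456wt and to 324 to 434 in the other numbers, the 7 peritubular myoid genes to 1691 against 414 to 1030, and the 8 endothelial genes to 45.0 against 19.5 to 27.9. Of these lists 6 of 7, 7 of 7 and 8 of 8 genes were called with the highest level in 456wt. No gene of the 3 lists was below 0.1 FPKM. Their part in the values of Sfrp1, Sfrp2, Fzd2 and the other members highest in 456wt was not tested. The other somatic lists were not highest in 456wt. The Sertoli list, with the largest sums, had 2649 FPKM in 456wt, 2467 in 444wt, 4288 in 186wt and 4404 in 343wt. Leydig and macrophage genes had their highest sums in 343wt (120 and 38.4 FPKM) and their lowest in 444wt (16.4 and 9.07). Genes of undifferentiated spermatogonia summed to 100.2 FPKM in 186wt, 116.8 in 343wt, 140.1 in 444wt and 140.4 in 456wt. Their sum was thus higher in the same pair of numbers as Fzd2, but the single genes were not all so. All 8 were called, with 3 highest in 444wt, 3 in 456wt and 2 in 343wt, and Id4 and Etv5 were lowest in 444wt. Genes of differentiating spermatogonia summed to 215, 225, 350 and 287 FPKM, also with 444wt and 456wt above the others. The part of these lists in the members' values was not tested either.

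**Figure D4:**
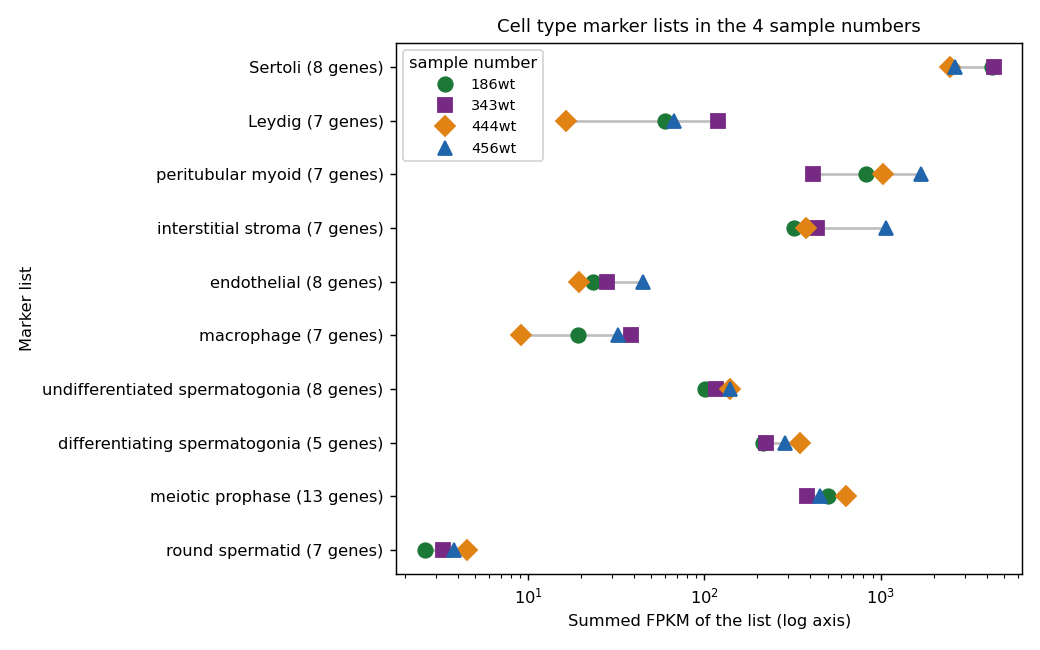
Summed FPKM (log axis) of 10 cell type marker lists in the 4 sample numbers, 1 symbol for each number. The peritubular myoid, interstitial stroma and endothelial sums are highest in 456wt, and the Sertoli sums of 186wt and 343wt (4288 and 4404 FPKM) lie above those of 444wt and 456wt.

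Other genes of the pathway were taken from 8 lists. Of 80 genes found, 77 were tested and 57 called (74.0%), again beside 58.2% of all genes. Among genes of at least 1 FPKM it was 57 of 69 pathway genes and 77.6% of all genes. Called and highest in 456wt were 27 of the 77 (35.1%), beside 16.3% of all genes tested. None of these gaps was tested. The share highest in 456wt was not computed for genes of at least 1 FPKM, so that comparison is not matched for level. The counts by list given below stand beside the same 58.2%, or beside 77.6% where a whole list lies above 1 FPKM. The ligand handling genes Porcn, which attaches the lipid to Wnts, and Wls, which carries them to the surface, were both called, at 11.5 ± 1.45 and 7.28 ± 1.65 FPKM (SD, n = 4). Of the coreceptors 6 of 7 were called, and the highest were Ryk (49.2 FPKM) and Ptk7 (35.5 FPKM). Ptk7 was at 30.3, 28.1, 41.2 and 42.3 FPKM, with the same pair of high numbers as Fzd2.

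Among 11 other antagonists tested 8 were called. Igfbp4, an IGF-binding protein that also inhibits Wnt signalling, was at 25.0, 49.1, 25.1 and 49.4 FPKM. Frzb, a further Frizzled-related antagonist also named Sfrp3, was at 15.9, 20.8, 7.16 and 11.0 FPKM, so its order matched neither Sfrp1 and Sfrp2 nor Sfrp4. In the R-spondin axis, which sets how much Frizzled stays on the surface, 5 of 8 were called, with Lgr4, a receptor of R-spondins, at 15.1 FPKM and Znrf3, a ligase that removes Frizzled, at 11.6 FPKM.

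Of the genes that act inside the cell, Ctnnb1, the gene of β-catenin, was highest, at 215, 216, 214 and 219.8 FPKM, and was not called (0.04 ± 0.02, SE; adjusted p = 0.439 with limma). Csnk1a1, a kinase that marks β-catenin for degradation, was at 123 FPKM. Of 17 cytoplasmic genes, all above 1 FPKM, 12 were called, beside 77.6% of all genes of at least 1 FPKM. The median difference of the 17 was 0.14 (0.55 for all genes tested). These medians are not matched for level, since the list had a median of 38.7 FPKM and the genes tested went down to 0.1 FPKM. Of 14 nuclear genes, also all above 1 FPKM, 13 were called, with a median difference of 0.34 over the 14. The highest nuclear genes were the corepressor Tle3 (58.5, 61.7, 82.6 and 81.7 FPKM) and Tcf7 (38.9, 44.7, 57.2 and 55.3 FPKM).

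Of the genes known as targets of the pathway in other tissues, 8 of 12 tested outside the members were called. Axin2, the target most used as a readout, was at 15.3, 14.6, 14.9 and 14.2 FPKM (mean 14.7 ± 0.468, n = 4) and was not called (0.11 ± 0.06, SE; adjusted p = 0.416 with limma). Ccnd1, the cyclin D1 gene, was at 27.1, 29.1, 37.8 and 42.7 FPKM and called. Of the planar polarity genes 6 of 11 were called, with Prickle1 at 16.1 FPKM and Fuz at 8.49 FPKM as the highest.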

How the data were processed

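RNA-seq was made from 12 germ cell libraries (4 sample numbers of 3 libraries). The authors aligned 100-bp paired reads with Bowtie 0.12.9 to the NCBI build 37 transcriptome and computed with RSEM 1.2.8 the deposited FPKM values, which are rounded to 2 decimals and come without counts. RSEM divides reads shared by transcripts, and a strand setting is not given in the sources used here. The members and all lists were chosen with earlier results of these data known.

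Libraries of a number were averaged. Depth was estimated from the steps of low FPKM values, taking the effective length as the transcript length minus 60 bp. Positions come from GENCODE M1 (NCBI build 37). Genes that averaged 0.1 FPKM or more entered a fit in limma 3.58.1 under R 4.3.3 (lmFit, eBayes with trend, moderated F-test on log2(FPKM + 0.1), Benjamini-Hochberg adjustment over all genes tested, threshold 0.05). A fold on this scale understates the change of low genes. Other values were computed with Python 3.11.15, numpy 2.4.6 and pandas 2.3.3, and plots with matplotlib 3.10.9.

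Every member of at least 0.1 FPKM is named. Values by sample number and tests are given for the 5 highest Wnt and Fzd genes, the 3 highest Sfrp and 2 highest Dkk genes and any other member called with a difference over 1. Of pathway lists the 2 highest genes and Axin2 are named, and of marker lists the sums and the genes below 0.1 FPKM. Other genes were named after their values were seen, among them Fzd1, Fzd4, Fzd8, Fzd9, Fzd10, Wnt4, Wnt7b, Sycp3 and Clu. Of 80 pathway and 77 marker genes listed and found by symbol, all enter as listed, while Draxin and Rhox5 had no row of that symbol. The summed Fzd10 rows and the block for single genes were added after the data were seen.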

Additional observations from a re-analysis of the deposited data

Results flagged for a closer look

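Of 60 sets of 4 sample numbers compared (30 members, 4 family sums, 10 marker sums and 16 pathway genes), 3 held a sample number far from the others relative to the range, and chance gives about 1 in 20, or 3. The level of Wnt5b was 7.67 FPKM in 456wt and 4.37 to 4.67 FPKM in the other numbers. The summed interstitial stroma list was 1076 FPKM in 456wt and 324 to 434 FPKM elsewhere. Znrf3, the ligase that removes Frizzled receptors, was lower in 456wt, with 10.2 FPKM against 11.9 to 12.1 FPKM. All 3 were in 456wt, and the mean of Wnt5b without that number was 4.55 FPKM.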

How the results depend on the processing

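The count of called members was 19 to 21 under other pseudocounts, filters and scalings, without the variance trend and with the Fzd10 rows summed, against 21. It was 16 to 20 when a library or sample number was left out, lowest without 456wt. Called pathway genes were 52 to 57 and 48 to 57 in the same alternatives. With library number as a replicate block 20 members and 55 pathway genes were called, and Fzd8 was the member lost. Libraries with the same library number in different sample numbers did not deviate together once the mean of each sample number was removed. Their r was -0.06 to 0.13 for 18 pairs, and -0.13 to 0.08 for 36 pairs with other library numbers, so this pairing is of labels only. Of 21 called members, 12 were called in every alternative. The members of at least 0.1 FPKM were 29 to 30 when a library or number was left out, 29 when each number had to reach it, and 38 with any value above 0. For the members named by the rule above, 266 differences were compared with their values under an alternative, and 8 ended the call. That set holds Fzd3, which was never called, and leaves out some alternatives, such as quantile normalization. It also leaves out Fzd8, Wnt7b and Wnt4, whose calls were lost in 17, 5 and 2 alternatives. The causes were not tested. Depth limits the 8 members below 0.1 FPKM, which rest on 1 to 44.7 estimated fragments.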
